A study of Mus musculus with 6 samples.

Results

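Taste cells from mice aged 2 months and 6 months were compared for the transcripts of fibroblast growth factors (FGFs), their receptors and the Sprouty and Spred inhibitors. The members were taken by name, as every row of the gene table whose symbol starts with Fgf, Fgfr, Spry or Spred followed by a digit, and 35 of the 23361 genes matched. They were 22 FGF genes, 4 receptor genes, 4 Sprouty genes, 3 Spred genes and 2 genes, Fgfr1op and Fgfr1op2, that share only the name. The study asked how the transcriptome of taste cells differs between young and older adults. Cells were freed by enzymes from the circumvallate and foliate papillae of C57BL/6 mice, and the labels name no treatment or genetic change. The 2 month group held 3 libraries, each a pool of 4 mice, and the 6 month group held 3 libraries, each a pool of 3 mice. The table gives 1 FPKM value per gene and age, the authors' own value over the 3 libraries. FPKM is the number of fragments scaled by transcript length and by the mapped total, so levels of different genes can be compared. Library values were not analysed here, so no SD and no test stand behind any difference. The depth is also unknown, since FPKM keeps no read number.

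FGFs are secreted ligands that bind, together with heparan sulfate, to receptor tyrosine kinases. The receptors signal through adaptor proteins to Ras and the MAP kinases, and the pathway switches on its own inhibitors, among them Sprouty and Spred proteins. In the developing tongue, mesenchymal FGF10 and the inhibitor Sprouty2 take part in setting the size and number of circumvallate papillae. Some FGFs are hormones, and the FGF homologous factors are not secreted but bind voltage-gated sodium channels inside the cell.

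Among the members other than Fgfr1op and Fgfr1op2, receptors and inhibitors had the highest levels at both ages. Fgfr3, Fgfr2, Spry1, Spry2, Spred1 and Spred2 each had more than 10 FPKM at either age, while no FGF gene did. Between the ages, 1 member was lower at 6 months by at least 1.5-fold on the FPKM + 1 scale, and 0 were higher. Among all genes averaging 1 FPKM or more, 1.72% were lower and 1.05% higher by as much. The lower member was the ligand gene Fgf22, the least expressed of the 15 members at that level. It reached that mean through its 2 month value alone. The receptor gene Fgfr3 had the highest change of the 15 expressed members and the inhibitor gene Spry1 the next lowest after Fgf22, both short of 1.5-fold.

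Genes averaging 1 FPKM or more over both ages are called expressed, and 15 of the 35 members were. Changes are the log2(FPKM + 1) of 6 months less that of 2 months, a scale that understates the change of weakly expressed genes. Over the 15 expressed members the median log2 change was -0.04, against -0.01 over the 12652 expressed genes of the table. A lower value at 6 months was found for 10 of the 15, against 53.7% of all expressed genes, and with both ages scaled to the same upper quartile for 8 of 15, against 42.3%. The single member lower by at least 1.5-fold stands beside 1.72% of all expressed genes, and the 0 higher members beside 1.05%. With a smaller threshold of 0.32 on the log2 scale the counts were 1 lower and 1 higher member, beside 4.23% lower and 2.95% higher among all expressed genes. The other 13 expressed members lay within it. A count of 1 in 15 is the smallest above 0, so nothing about the family is read from these counts.

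**Figure D1:**
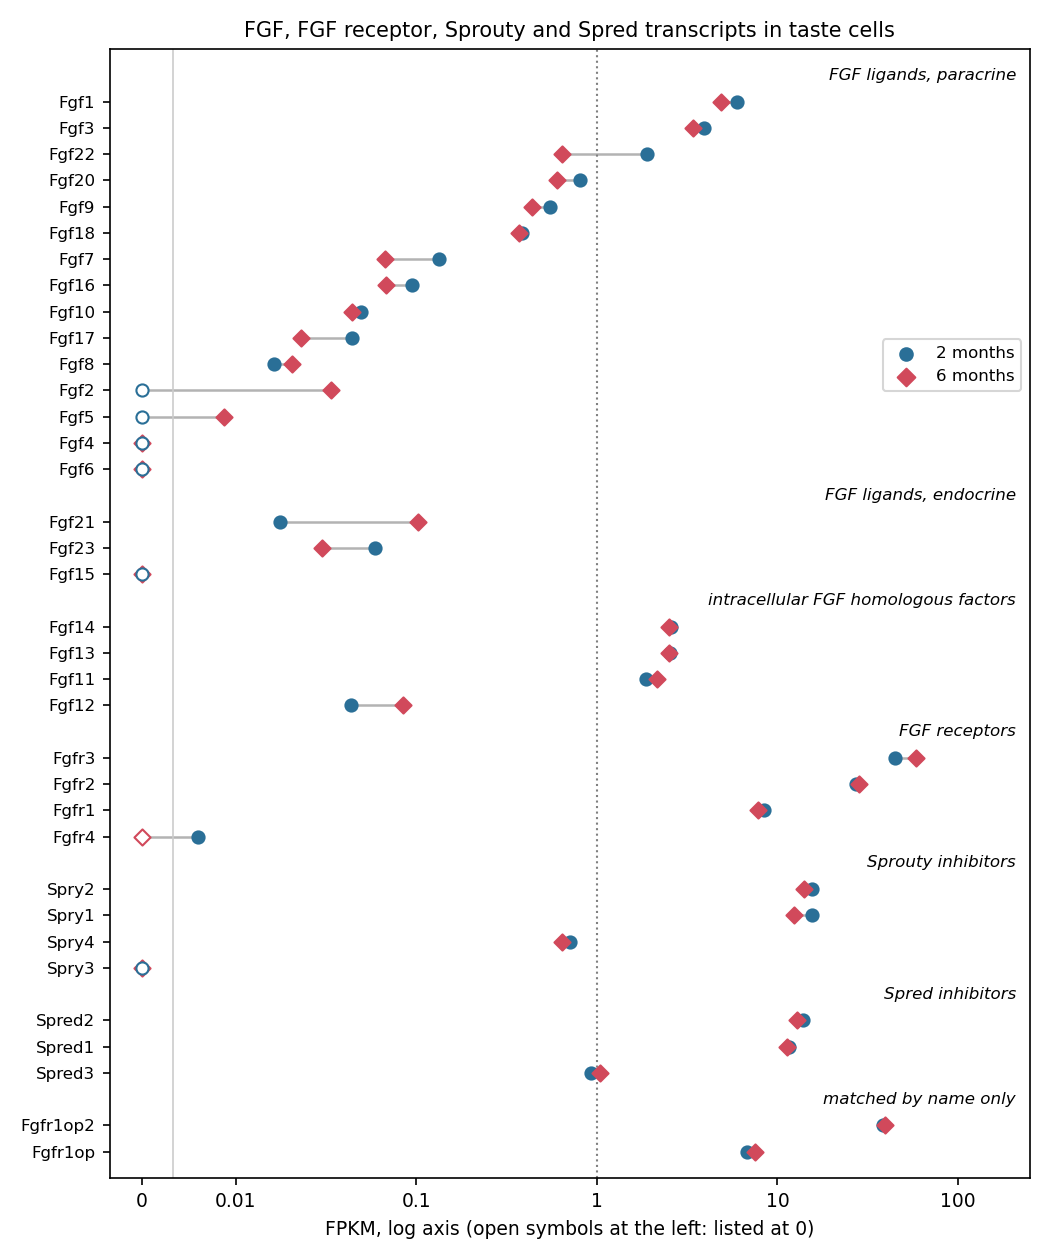
FPKM of all 35 members at 2 months (blue circles) and 6 months (red diamonds) on a log axis, grouped by role and ordered by mean level, with genes listed at 0 drawn as open symbols left of the grey line. The dotted line marks 1 FPKM. The receptors Fgfr1 to Fgfr3 and the inhibitors Spry1, Spry2, Spred1 and Spred2 lie right of 5 FPKM, and most ligands lie left of 1 FPKM.

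Among the secreted paracrine ligands, 3 of 15 were expressed, and all 3 had lower values at 6 months, beside 53.7% of all expressed genes. Of the 3, Fgf22 passed the expression minimum through its 2 month value alone. Fgf1, a ligand that binds every FGF receptor, lies on chromosome 18 from 38838672 to 38929470 (coordinates here are those of GRCm38) and had the highest level of the ligands. Its value was 5.98 FPKM at 2 months against 4.85 FPKM at 6, a log2 change of -0.25, and 6.85% of the expressed genes had a lower change. Fgf3, known for its part in inner ear development, had 3.94 and 3.42 FPKM, a log2 change of -0.16. Neither reached a log2 change of -0.32.

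Fgf22, a ligand of the Fgf7 subfamily that also organizes synapses in the brain, lies on chromosome 10 from 79755051 to 79757795. It had 1.88 FPKM at 2 months against 0.639 FPKM at 6, which is 0.339 times as much. The log2 change was -0.82 on the FPKM + 1 scale and -1.42 with a pseudocount of 0.1, and 1.21% of the expressed genes had a lower change. Fgf22 is the least expressed of the 15 and passed the expression minimum through its 2 month value alone. Among the 3341 genes with a mean of 1 to 5 FPKM, 5% had a change below -0.31. In the GENCODE annotation 82 of the 2167 exonic bases of Fgf22 also belong to Rnf126 on the opposite strand, which had 57.3 and 54.9 FPKM, while in RefSeq these genes do not meet. The counting is not stated to use strand, so reads over such bases could not be told apart.

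The other paracrine ligands were under 1 FPKM. Fgf20, Fgf9 and Fgf18 made up the next tier. Fgf20 had 0.806 FPKM at 2 months against 0.604 FPKM at 6, and Fgf9, of the same subfamily, had 0.552 and 0.436 FPKM. Fgf18 had 0.383 and 0.368 FPKM. Fgf7 and Fgf10, ligands that connective tissue makes for the epithelium, were lower still, with 0.133 and 0.0673 FPKM for Fgf7 and 0.0490 and 0.0439 FPKM for Fgf10.

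Fgf16, Fgf17, Fgf8, Fgf2 and Fgf5 did not exceed 0.0949 FPKM at either age. Of the 6525 exonic bases of Fgf2, 640 also belong to Nudt6 on the opposite strand, which had 6.12 and 5.38 FPKM. Fgf2 and Fgf5 were listed at 0 at 2 months, and Fgf4 and Fgf6 at 0 at both ages. A listed 0 is not a safe absence in this table. For example, the keratin gene Krt4 is listed at 7334 FPKM at 2 months and at 0 at 6 months, and 9 genes over 100 FPKM at 2 months are listed at 0 at 6 months. Another 8 genes are listed at 0 at 2 months and over 100 FPKM at 6 months. No fold is therefore given against a 0.

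The endocrine ligands, which act as hormones with a Klotho co-receptor, were all near 0. Fgf21 had 0.0176 and 0.101 FPKM, Fgf23 had 0.0589 and 0.0299 FPKM, and Fgf15, the bile acid-induced hormone of the intestine, was listed at 0 at both ages. The co-receptor genes Kl and Klb stood at the same low level, with 0.0323 and 0.0236 FPKM for Kl and 0.0283 and 0.0243 FPKM for Klb. Some members lie beside each other. Fgf3, Fgf4 and Fgf15 follow each other on chromosome 7 between 144838612 and 144900953, and of these Fgf3 alone was expressed. On chromosome 6, Fgf6 and Fgf23 lie between 127015542 and 127082296, and both were near 0.

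Of the 4 intracellular FGF homologous factors, 3 were expressed, at levels close to each other. Fgf14 had 2.58 FPKM at 2 months against 2.49 FPKM at 6. Fgf13 had 2.53 and 2.51 FPKM. Fgf11 had 1.88 and 2.15 FPKM, a log2 change of 0.13. Fgf12, the remaining one, had 0.0435 and 0.0842 FPKM. The order of Fgf13 and Fgf14 cannot be taken as a difference, since no spread between libraries is known.

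**Figure D2:**
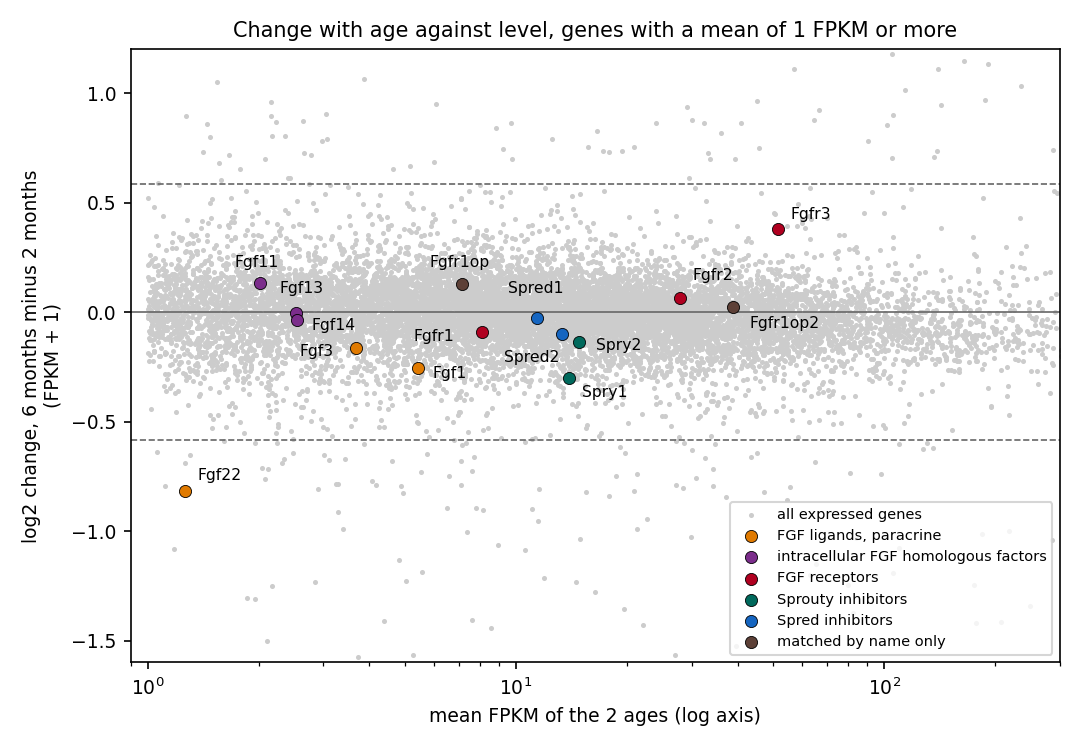
Log2 change of FPKM + 1, 6 months minus 2 months, against the mean FPKM of the ages on a log axis, for all 12652 expressed genes (grey, some beyond the axes) and the 15 expressed members (coloured by role). Dashed lines mark 1.5-fold. Fgf22 lies below the lower line at -0.82, Fgfr3 is the highest member at 0.38, and the others lie between -0.30 and 0.13.

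The receptors had the largest summed level of the groups by role at both ages. Fgfr3, on chromosome 5 from 33721724 to 33737068, restrains the growth of cartilage and is also made in epidermal keratinocytes. It had 44.6 FPKM at 2 months against 58.2 FPKM at 6, or 1.31 times as much. This is a log2 change of 0.38, and 97.8% of the expressed genes had a lower one. Of the 4371 genes with a mean of 20 FPKM or more, 2.84% were higher by at least 0.32 on the log2 scale, as Fgfr3 was. In GENCODE, 437 of its 4399 exonic bases also belong to an unclassified transcript on the opposite strand.

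Fgfr2, whose epithelial splice form is the receptor of Fgf7, Fgf10 and Fgf22, had 27.2 and 28.5 FPKM, a log2 change of 0.06. The table has 1 value per gene, so its splice forms were not analysed here. In GENCODE it shares 314 of 5115 exonic bases with Ctbp2, which had 33.4 and 32.9 FPKM. Fgfr1, the receptor typical of mesenchymal cells, had 8.37 and 7.79 FPKM, a log2 change of -0.09. Fgfr4, a receptor of liver and muscle progenitors, had 0.00613 FPKM at 2 months and was listed at 0 at 6 months. The order Fgfr3, Fgfr2, Fgfr1, Fgfr4 was the same at both ages. Fgfr3 was 1.64 times as high as Fgfr2 at 2 months and 2.04 times at 6 months, and Fgfr2 was 3.25 and 3.65 times as high as Fgfr1. The summed FPKM of the 4 receptors was 80.2 at 2 months and 94.5 at 6 months. Fgfr3 made up 55.6% of that sum at 2 months and 61.6% at 6 months.

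Sprouty proteins hold back Ras-MAP kinase signalling downstream of receptor tyrosine kinases. Spry2 had 15.6 FPKM at 2 months against 14.1 FPKM at 6, a log2 change of -0.13. Spry1, on chromosome 3 from 37639947 to 37644599, had 15.5 and 12.4 FPKM, a log2 change of -0.30, and 4.93% of the expressed genes had a lower change. These genes were nearly level at 2 months. In GENCODE, 710 of the 2906 exonic bases of Spry1 also belong to an unclassified transcript on the opposite strand. Spry4 had 0.711 and 0.644 FPKM, and Spry3 was listed at 0 at both ages.

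Spred proteins, relatives of Sprouty that bring neurofibromin to Ras, showed smaller differences. Spred2 had 13.9 FPKM at 2 months against 12.8 FPKM at 6, a log2 change of -0.10. Spred1 had 11.5 and 11.3 FPKM, a log2 change of -0.03. Spred3 had 0.929 and 1.04 FPKM, a mean just under the expression minimum. With the Sprouty genes, 4 of 4 expressed inhibitors had a lower value at 6 months, beside 53.7% of all expressed genes, each by less than 0.32 on the log2 scale. With both ages scaled to the same upper quartile, however, Spred1 had a higher value at 6 months.

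**Figure D3:**
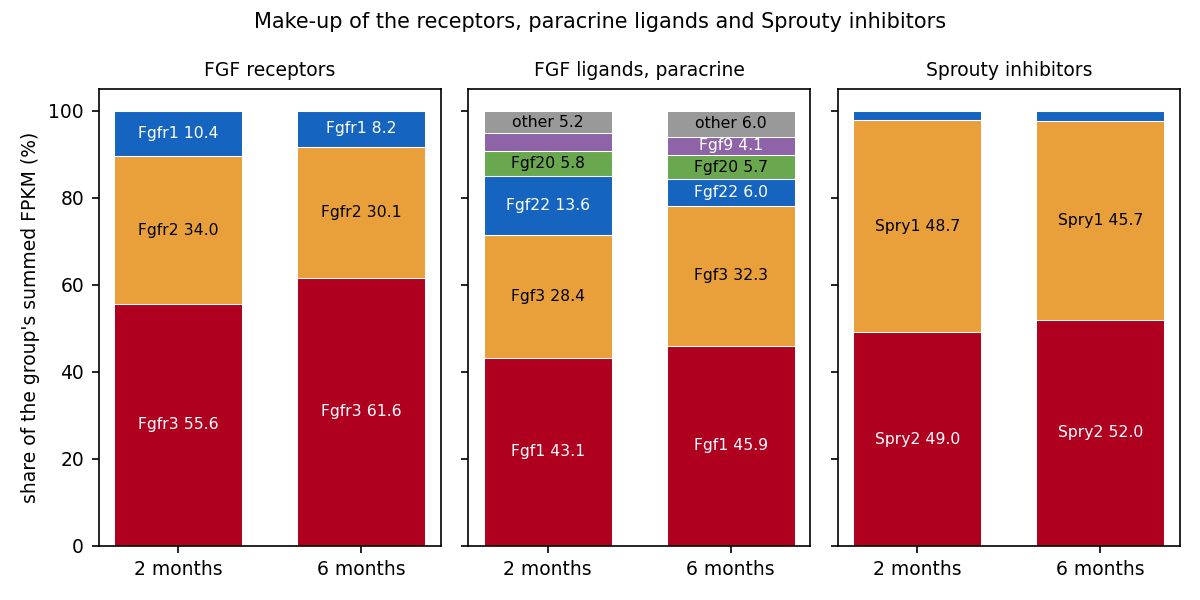
Share of the summed FPKM (%) within the receptors, the paracrine ligands and the Sprouty inhibitors at 2 and 6 months, with the lower ligands pooled as other. The thin blue segment is Spry4 and the unlabelled purple one Fgf9. Bars start at 0 and carry no error, since each is made from 1 value per gene and age. Fgfr3 holds 55.6% and 61.6% of the receptor sum, and Fgf22 holds 13.6% and 6.04% of the ligand sum.

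Fgfr1op, a centrosomal protein gene named for its fusion with Fgfr1 in a blood cancer, had 6.79 and 7.52 FPKM, and Fgfr1op2 had 38.6 and 39.2 FPKM. They are neither ligands nor receptors. Without them, 13 of 33 members were expressed and the median log2 change was -0.09.

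The other genes of the pathway were taken from 5 lists by role, with 71 expressed genes of 78 in the table. Over all of them the median log2 change was 0.03, and 3 were lower and 0 higher by at least 1.5-fold, beside 1.72% and 1.05% of all expressed genes. All 3 were among the target genes, and the lists were chosen with earlier results of these data known.

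Of the binding proteins and co-receptors, 14 of 17 were expressed, 0 passed 1.5-fold in either direction, and the median log2 change was -0.02. The highest was Sdc1, a cell surface heparan sulfate proteoglycan, with 259.3 FPKM at 2 months against 267.7 FPKM at 6. Fgfbp1, which releases FGFs from the matrix, had 76.0 and 74.9 FPKM. The closest to the threshold were Hspg2, the basement membrane proteoglycan perlecan, with 2.85 and 4.60 FPKM and a log2 change of 0.54 that passed it with a pseudocount of 0.1, and Fgfbp3, with 3.64 and 5.27 FPKM and a log2 change of 0.43. These and Fgfbp1 were picked out after their values were seen.

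The heparan sulfate enzymes had 10 of 12 genes expressed, with a median log2 change of 0.02 and 0 past 1.5-fold. Hs6st1, which sulfates heparan chains, was the highest, with 46.6 and 46.9 FPKM. All 16 adaptors and receptor-proximal enzymes were expressed, with a median log2 change of 0.10 and 0 past 1.5-fold, and their highest member was Crk, at 43.6 and 42.8 FPKM. In the Ras-MAP kinase cascade 13 of 14 genes were expressed, with log2 changes between -0.03 and 0.13 and a median of 0.03. Mapk3, which encodes the kinase ERK1, was the highest, at 98.6 and 96.3 FPKM.

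The FGF target genes and other feedback inhibitors had 18 of 19 genes expressed and a median log2 change of -0.18. Lower values at 6 months were found for 12 of the 18, beside 53.7% of all expressed genes, and 3 were lower by at least 1.5-fold, beside 1.72%. These were the immediate early genes Fos and Egr1, transcription factors, and Ier3. Fos had 139.7 FPKM at 2 months against 37.5 FPKM at 6, a log2 change of -1.87. Egr1 had 100.1 and 31.1 FPKM, a log2 change of -1.65. Ier3 had 132.9 and 87.2 FPKM, a log2 change of -0.60, and had the highest mean level of the list. Its change fell short of 1.5-fold once both ages were scaled to the same upper quartile. These genes answer to many stimuli besides FGF. Without Fos, Egr1, Ier2 and Ier3, a choice made after their values were seen, the median of the list was -0.04.

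The ETS factors and dual specificity phosphatases of the list are target genes long used as readouts of FGF signalling, and they too were picked out after their values were seen. Etv5 had 14.5 and 10.7 FPKM, a log2 change of -0.41. Etv4 had 9.87 and 8.24 FPKM, a log2 change of -0.23. Etv1, the remaining ETS factor gene of the list, had 12.1 and 11.0 FPKM, a log2 change of -0.13. Dusp6, the phosphatase that turns off ERK, had 27.6 FPKM at 2 months against 20.3 FPKM at 6, a log2 change of -0.42. Dusp5 had 9.80 and 6.44 FPKM, a log2 change of -0.54, while Dusp4 and Dusp7 had log2 changes of -0.06 and 0.03. Il17rd, a membrane inhibitor of FGF receptors, had 1.51 and 1.79 FPKM. Etv5, Dusp5 and Dusp6 were thus lower by more than 0.32 on the log2 scale, as was Ier2 with 116.8 and 81.4 FPKM. None of these 4 reached 1.5-fold on the FPKM + 1 scale, while Dusp5, whose FPKM at 6 months was 0.658 times that at 2 months, passed it with a pseudocount of 0.1. At 0.32, 7 of the 18 expressed genes of the list were lower and 0 higher, beside 4.23% and 2.95% of all expressed genes. Fos, Egr1, Ier2 and Ier3 were among the 7. Without them, a choice made after their values were seen, 3 of 14 were lower and 0 higher. Higher values at 6 months were found for 6 of the 18. The highest change was that of Ccnd1, with 76.1 and 92.3 FPKM and a log2 change of 0.28. Whether FGF signalling set any of these values was not tested.

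**Figure D4:**
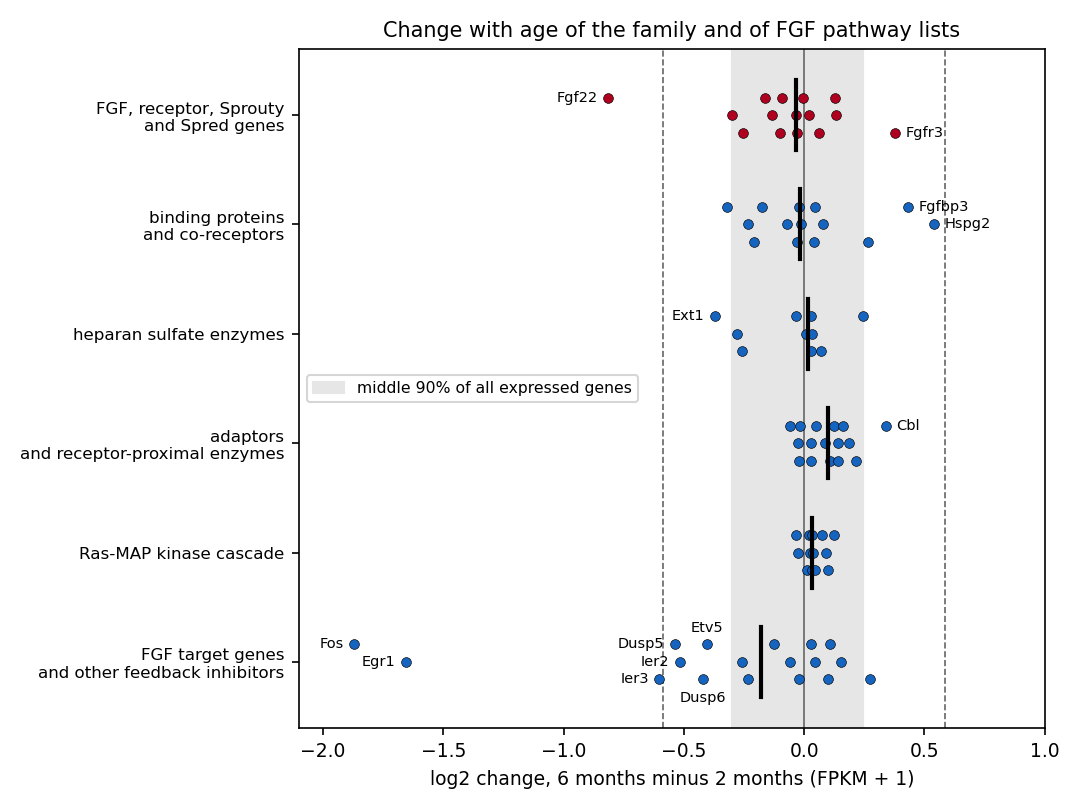
Log2 change of FPKM + 1, 6 months minus 2 months, for the 15 expressed members (red) and the expressed genes of 5 pathway lists (blue), 1 point per gene with black bars at the medians. The grey band, from -0.30 to 0.24, leaves out the lowest and the highest 5% of all expressed genes, dashed lines mark 1.5-fold, and genes beyond 0.32 in either direction are named. Medians run from -0.18 for the target genes to 0.10 for the adaptors.

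Markers of the cell types were set beside these values. The taste cell channel gene Trpm5 had 29.1 and 27.7 FPKM, and the basal keratinocyte gene Krt5 had 2180 and 1962 FPKM, so the libraries held taste and epithelial transcripts. The expressed markers of type I, II and III taste cells had median log2 changes of -0.20, 0.01 and 0.16, and those of basal keratinocytes -0.05. The type I median rests on 4 genes, 3 lower and 1 higher at 6 months. The higher one, Gja1, had the highest level, at 162.5 and 194.0 FPKM, and made up most of the summed type I list of 254.9 and 274.3 FPKM. The 3 lower ones were Entpd2 at 66.1 and 57.7 FPKM, Hepacam2 at 15.6 and 13.3 FPKM, and Kcnj1 at 9.25 and 7.71 FPKM. Col1a1, a defining fibroblast gene, was at 0.134 and 0.0599 FPKM and the endothelial gene Pecam1 at 0.331 and 0.295 FPKM. Of the fibroblast list 4 of 10 genes were expressed, with sums of 54.9 and 42.2 FPKM. Most of that sum was Dcn, a matrix proteoglycan gene lower by at least 1.5-fold, at 42.0 and 27.3 FPKM, and without it the sums were 12.9 and 14.9 FPKM. Of the endothelial list 2 of 8 were expressed, with sums of 5.95 and 5.34 FPKM, most of it Vwf at 3.94 and 3.34 FPKM. In tissue of mixed cells, fewer cells of a type and less RNA per cell cannot be told apart. Of the suprabasal and cornified keratinocyte markers, 9 of 12 expressed genes were lower at 6 months by at least 1.5-fold, beside 1.72% of all expressed genes. Without Krt4, 8 of 11 of these markers were lower by as much. Their summed level without Krt4 was 3455 FPKM at 2 months against 2044 FPKM at 6. Krt13 of that list was at 0 at both ages. The summed markers of the lingual gland were 138.4 and 55.0 FPKM, and 54.7 and 40.3 FPKM without the lipase gene Lipf, which had 83.7 and 14.7 FPKM. Dcpp2 of that list was higher at 6 months by at least 1.5-fold, at 1.45 and 3.28 FPKM. Further, 5 of 6 expressed skeletal muscle markers were higher by at least 1.5-fold, beside 1.05% of all expressed genes. The sums of that list were 13.7 and 27.2 FPKM. The 7 expressed leukocyte markers, 2 lower and 5 higher at 6 months, had a median of 0.03. Sums of that list were 415.5 and 376.7 FPKM, most of it Lyz2 at 293.3 and 253.7 FPKM. The Schwann cell markers, 3 of them expressed, had a median of -0.40. The part of these cell types in the values of Fgf22, Fgfr3 and Spry1 was not tested.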

How the data were processed

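RNA of isolated taste cells was sequenced in 3 pooled libraries per age. Per the labels and the methods, the authors mapped reads to GRCm38/mm10 with TopHat2 2.0.7, quantified RefSeq genes with Cufflinks 2.1.1 and compared ages with Cuffdiff. The deposited table holds 1 FPKM value per gene and age, the authors' value over 3 libraries. Its column of p-values holds the authors' own comparison and was not used. The 6 month column was identified by the letter shared with the sample titles. The younger age is the labels' 2 months, although the design text names 3 months in one place. Of the gene names, 27 are dates, and they match no rule.

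Differences of log2(FPKM + 1) were computed for genes averaging 1 FPKM or more and counted at 1.5-fold, with no test, since library values and depth were not at hand. All members passing the minimum, members of at least 0.1 FPKM, and of each pathway list the highest gene and those past 1.5-fold were named. Members and lists were chosen with earlier results of these data known. Coordinates come from RefSeq (GRCm38.p6, 35 members matched), overlaps from GENCODE vM21 (34 matched). The counting was checked on simulated data. Python 3.11.15, numpy 2.4.6 and pandas 2.3.3 were used.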

Additional observations from a re-analysis of the deposited data

How the results depend on the processing

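The ages are separate pools of mice and the labels name no pairs, so no paired analysis was made. No library was left out, because values per library were not analysed here. The count of 1 member lower by at least 1.5-fold became 0 at 2-fold and 0 with a minimum mean of 5 FPKM, which removes Fgf22. At the smaller threshold of 0.32 on the log2 scale there was 1 higher member, and the pathway lists held 8 lower and 3 higher genes in place of 3 and 0. Of all expressed genes, 4.23% were lower and 2.95% higher at that threshold. With a pseudocount of 0.1 the pathway lists held 4 lower genes, Dusp5 being added, and 1 higher gene, Hspg2. Under that setting 2.17% of all expressed genes were lower and 1.46% higher by at least 1.5-fold. Scaling both ages to the same upper quartile shifted the median of all expressed genes by 0.04 and turned the sign of 2 of the 15 expressed members, Fgf13 and Spred1, and of 10 of the 71 expressed pathway genes, among them Crk, Fgfbp1 and Mapk3, none with a log2 change beyond 0.04 in size. The median of the FGF target list moved from -0.18 to -0.04 without Fos, Egr1, Ier2 and Ier3, a choice made after seeing the data, as were the marker sums without Krt4, Dcn or Lipf. A median counted as moved at a difference of 0.1, since no spread is known. FPKM without depth sets no limit on what could be detected, so values under 0.1 FPKM carry no order.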
